A study of Homo sapiens with 4 samples.

Results

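The insulin-like growth factor (IGF) receptors and IGF-binding proteins are described here across parental and cisplatin-resistant head and neck squamous cell carcinoma (HNSCC) cells. The members were chosen by name, as all probes whose gene name was IGF1R, IGF2R, IRS1 or one of IGFBP1 to IGFBP7. This gave 10 genes of the 43305 with a value on the arrays, 13 probes of 58201 and 31 spots of 60901. Gene expression was measured with 4 one-colour Agilent arrays. Parental HN4, parental HN30 and their resistant derivatives HN4/DDP and HN30/DDP (HN4_CR and HN30_CR in the sample labels) had 1 array each. HN4 and HN30 are established human HNSCC lines, grown in DMEM with 10% FBS at 37 °C and 5% CO2. The methods state that the resistant lines were derived from them by raising the cisplatin concentration step by step. They add that these lines were kept in medium with 20 μM cisplatin. Per the labels, the resistant cells were in medium with 20 μM cisplatin for 48 h, and no exposure is given for the parental cells. Cisplatin is a platinum drug that damages DNA. Acquired resistance and the presence of the drug therefore cannot be told apart in these comparisons.

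IGF1R is a receptor tyrosine kinase at the cell surface that binds IGF1 and IGF2 and signals through the adaptor protein IRS1 to the PI3K-AKT and RAS-MAPK pathways. IGF2R, also the cation-independent mannose-6-phosphate receptor, has no kinase, takes IGF2 into the cell for breakdown and carries enzymes to lysosomes. The IGF-binding proteins are secreted proteins that hold IGFs outside the cell and so set how much ligand reaches the receptor. IGFBP3 is the main carrier of IGFs in the blood, and IGFBP7 binds IGFs only weakly.

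The signal of a gene rests on short DNA probes of 60 bases. The 2 shown here are those of IGFBP6 and of the IGFBP7 transcript NM_001253835. The level of IGFBP6 varied little over the arrays at the main scaling described below. The IGFBP7 probe gave nearly the same differences as the brighter IGFBP7 probe described later. The IGFBP6 probe lies on the plus strand at chr12:53494853-53494912 and the IGFBP7 probe on the minus strand at chr4:57906990-57907049, both in hg19. In each, at least 1 reading frame is free of stop codons. No letter is capitalised, as no part of a probe is singled out.
IGFBP6: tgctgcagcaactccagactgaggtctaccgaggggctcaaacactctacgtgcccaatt
IGFBP7: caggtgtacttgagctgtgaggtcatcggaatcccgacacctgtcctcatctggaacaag
Whether the probes of the members lie in coding exons or in untranslated parts was not analysed here, because no annotation of hg19 was used.

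The study centres on the transcription factor CREB5, for which its text gives TGACG and TGGCG as the canonical and non-canonical motif of CREB factors. The promoters of the members were therefore searched on both strands for these letters, from 250 bases before to 50 bases after the RefSeq start (GRCh38.p14). A promoter was given for 8 members, all but IGFBP1 and IGFBP7. TGACG was found in 2 of the 8, IGF2R and IRS1, against 24.6% of all 35116 promoters of this length. TGGCG was found in 1 of the 8, IRS1, against 41% of all promoters. The full palindrome TGACGTCA was in none of the 8, against 1.85%. GGGCGG, the GC box, was in 7 of the 8, all but IGFBP5, against 45%. TATAA was in 1 of the 8, IGFBP4, against 20.4%. The 250 bases before the start are shown for the 3 members that were lower in HN4/DDP and for IGF2R, with TGACG and TGGCG in capitals. They lie at chr7:45921273-45921522 (minus strand) for IGFBP3, chr15:98648289-98648538 (plus strand) for IGF1R, chr2:226799821-226800070 (minus strand) for IRS1 and chr6:159968832-159969081 (plus strand) for IGF2R.
IGFBP3: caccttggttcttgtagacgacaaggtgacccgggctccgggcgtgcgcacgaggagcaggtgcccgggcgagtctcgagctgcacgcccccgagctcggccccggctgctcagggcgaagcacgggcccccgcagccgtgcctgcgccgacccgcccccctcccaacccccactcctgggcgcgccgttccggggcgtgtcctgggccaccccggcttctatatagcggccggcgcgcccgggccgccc
IGF1R: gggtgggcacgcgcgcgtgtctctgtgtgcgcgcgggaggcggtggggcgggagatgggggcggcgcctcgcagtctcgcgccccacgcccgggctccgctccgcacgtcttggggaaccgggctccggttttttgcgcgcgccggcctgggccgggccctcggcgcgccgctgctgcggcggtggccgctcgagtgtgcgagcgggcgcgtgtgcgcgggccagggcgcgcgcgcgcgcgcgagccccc
IRS1: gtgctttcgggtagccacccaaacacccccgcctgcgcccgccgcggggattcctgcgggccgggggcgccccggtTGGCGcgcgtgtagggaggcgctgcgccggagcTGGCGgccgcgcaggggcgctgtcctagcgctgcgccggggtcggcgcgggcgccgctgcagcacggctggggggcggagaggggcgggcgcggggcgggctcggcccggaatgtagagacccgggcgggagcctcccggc
IGF2R: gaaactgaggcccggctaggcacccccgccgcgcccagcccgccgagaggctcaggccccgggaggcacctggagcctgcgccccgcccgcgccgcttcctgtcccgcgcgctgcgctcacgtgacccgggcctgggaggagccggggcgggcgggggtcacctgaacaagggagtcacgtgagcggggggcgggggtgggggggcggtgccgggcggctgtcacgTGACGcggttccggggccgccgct
Neither motif is in the stretches of IGFBP3 and IGF1R. Bases further upstream were not searched, so a motif there would be missed, and its absence is shown for the searched window only. By the position the study gives, the TGACG site it reports for TOP1MT lies further upstream than such a window reaches. The search therefore cannot decide whether a member lacks a motif of this kind. The stretch of IRS1 holds TGGCG at -174 and -141, counted in bases from the start with negative positions before it, and its TGACG lies 32 bases after the start, outside the stretch shown. IGF2R holds TGACG at -24. These are matches of letters and say nothing of binding.

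A level is the log2 signal of a gene minus log2 of the 75th percentile of its array, so a level of 0 equals that percentile, and a difference of 1 in levels is a change of 2-fold. The 75th percentile of the signal was between 444 and 496 on the 4 arrays, and 55.3% to 63.6% of the spots were well above background by the scanner software. No spot was saturated. The groups are not separated by slide or scan, since the arrays shared 1 of each. A resistant line cannot be tested against its own parental line, because each has a single array, and the precision of every difference is limited by that number. The error given is the scanner SD, which follows from the error that the software states for a spot and leaves out the variation between cultures. Levels of different genes rest on different probes and are not compared with each other.

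The arrays carried the markers of squamous epithelial cells, with 10 to 11 of the 11 listed genes well above background on each array and a summed level of 7.69 to 8.40. In HN4/DDP, 3 of the 11 were higher than in HN4 by more than 2 (KRT6A by 3.32, KRT17 by 3.29 and KRT14 by 2.33) and 1 was lower (KRT5, with -4.05). In HN30/DDP, 1 was lower than in HN30 (KRT6A, at least 183-fold) and 0 were higher. Of all genes, 3.61% were higher and 2.2% lower in HN4/DDP, and 8.37% and 2.75% in HN30/DDP. The summed level rests largely on SFN (5.97 to 7.13) and EPCAM (5.95 to 6.67), while KRT14, KRT6A and KRT17 lay at -2.68, -2.97 and -1.78 in HN4. Of 9 fibroblast markers, 3 were well above background on each array, with a summed level of -1.21 to 0.77. COL1A2, COL3A1, PDGFRA, DCN, LUM and THY1 were not well above background on any array. The 3 were VIM, which differed by 2.75 in HN4/DDP, against 0.95 in HN30/DDP, COL1A1, which differed by 1.73 and 2.43, and PDGFRB, which differed by -0.01 and 0.63. Of 4 leukocyte markers 2 to 3 were well above background on each array (summed level 1.87 to 5.31), and of 4 endothelial markers also 2 to 3 (summed level -2.16 to -1.66), while MS4A1 and KDR were so on none. CD14 was higher in HN30/DDP than in HN30 by 3.49. In HN4/DDP, VWF was at least 5.37-fold higher and PECAM1 at least 2.05-fold lower than in HN4. The part of these markers in the results was not tested.

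Among the members, 7 genes were well above background on all 4 arrays (IGF1R, IGF2R, IRS1, IGFBP2, IGFBP3, IGFBP6 and IGFBP7). IGFBP4 was so on 1 array, HN30/DDP, and IGFBP1 and IGFBP5 on none. In HN4/DDP, IGFBP3, IGF1R and IRS1 were lower than in HN4 by more than 2 on the log2 scale, and no member was higher by that much. The call of IRS1 was lost with normexp and with a pseudocount of 16. In HN30/DDP, no member passed 2 in either direction in the main setting, and IGFBP3 did so with scaling to the array median. IGFBP3 was the only member lower by more than 1 in both resistant lines, and IGF1R was lower by more than 1 in HN4/DDP and higher in HN30/DDP, by more than 1 in the main setting but not with 2 other scalings.

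**Figure D1:**
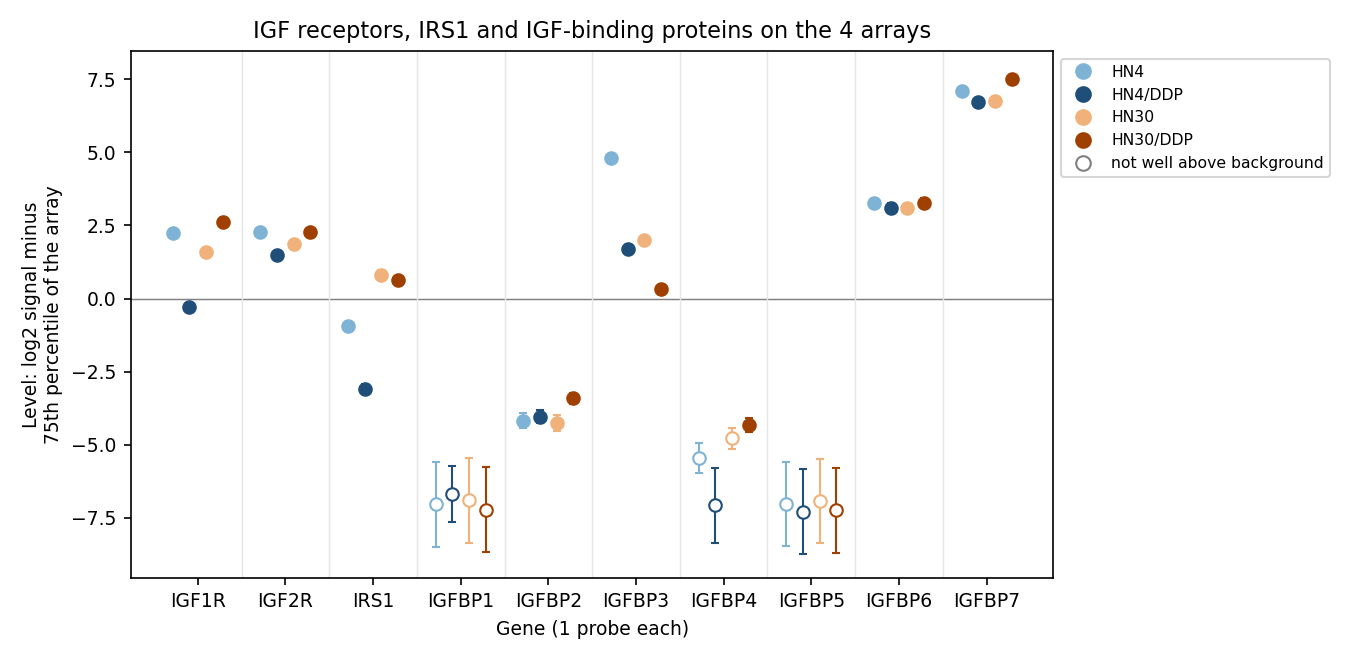
Levels of the 10 genes on the 4 arrays, 1 probe a gene, on the vertical axis as log2 signal minus the 75th percentile of the array. Points are single arrays, bars are the scanner SD (within the point where small) and open points are not well above background. IGFBP3 was highest on the HN4 array at 4.81, and IGF1R was lowest on the HN4/DDP array at -0.29.

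IGF1R, the signalling receptor, had a level of 2.23 in HN4 and -0.29 in HN4/DDP, against 1.59 in HN30 and 2.62 in HN30/DDP. In signal these are 2314, 406, 1338 and 2957. The HN4/DDP array was thus the lowest and stood apart from the other 3. The order was HN30/DDP, HN4, HN30, HN4/DDP, and the first 2 did not differ by more than 2 scanner SDs. IGF1R was 5.73-fold lower in HN4/DDP than in HN4, a log2 difference of -2.52 (scanner SD 0.20). In HN30/DDP it was 2.05-fold higher than in HN30, a log2 difference of 1.03 (scanner SD 0.20). The signs of these differences were the same under all 10 alternative settings of the processing. In HN30/DDP, however, the difference was 0.61 with scaling to the array median and 0.90 with the percentile over averaged probes, both below 1. Its only probe lies at chr15:99507366-99507425 (hg19, plus strand).

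IGF2R, the receptor that clears IGF2, had a level of 2.28 in HN4 and 1.48 in HN4/DDP, against 1.87 in HN30 and 2.29 in HN30/DDP. HN4/DDP was again the lowest array, although HN30 did not differ from it by more than 2 scanner SDs, and neither did HN30/DDP from HN4. In HN4/DDP it differed from HN4 by -0.80 and in HN30/DDP from HN30 by 0.42 (scanner SD 0.20 for both), but the latter was -0.0017 with scaling to the array median. The direction in HN30/DDP thus depends on the scaling. Its probe lies at chr6:160527114-160527173 (hg19, plus strand).

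IRS1, the adaptor that couples IGF1R and the insulin receptor to PI3K, was measured by 2 probes. The brighter one, at chr2:227600148-227600207 (hg19, minus strand), gave -0.95 in HN4 and -3.10 in HN4/DDP, against 0.82 in HN30 and 0.63 in HN30/DDP. The dimmer one, at chr2:227596618-227596677, gave -3.09, -6.91, -1.23 and -1.95 on the same arrays, and was not well above background in HN4/DDP. Both probes put the arrays in the same order, with HN30 first and HN4/DDP last. By the brighter probe IRS1 was 4.43-fold lower in HN4/DDP than in HN4, a log2 difference of -2.15 (scanner SD 0.22). By the dimmer one it was at least 3.75-fold lower. In HN30/DDP the brighter probe differed by -0.19 (scanner SD 0.20), within its error, and the dimmer one by -0.73 (scanner SD 0.21). The former turned to 0.075 with the percentile over probes well above background on all arrays. The call of IRS1 in HN4/DDP was lost with the normexp background correction (-1.45) and with a pseudocount of 16 (-1.88).

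IGFBP3 had the widest range of the members that were well above background on all arrays. Its level was 4.81 in HN4 and 1.69 in HN4/DDP, against 1.998 in HN30 and 0.31 in HN30/DDP. Both resistant lines were lower than their parental lines, and HN4 stood above the other 3 arrays, of which HN30 and HN4/DDP did not differ by more than 2 scanner SDs. The probe, at chr7:45952608-45952667 (hg19, minus strand), was printed 10 times on each array. After outlier spots were left out, the unscaled signals of its spots ran from 13615 to 14204 in HN4 and from 1557 to 1643 in HN4/DDP, against 1731 to 1802 in HN30 and 582 to 624 in HN30/DDP. The SD of the spots of an array was 0.017 to 0.027 on the log2 scale, which is the error within an array only. IGFBP3 was 8.72-fold lower in HN4/DDP than in HN4, a log2 difference of -3.12 (scanner SD 0.20), and 3.21-fold lower in HN30/DDP than in HN30, a log2 difference of -1.68 (scanner SD 0.20). Of all genes counted in each comparison, 0.871% had a lower difference in HN4/DDP and 4.6% in HN30/DDP. With scaling to the array median the difference in HN30/DDP was -2.10 and passed the threshold.

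IGFBP7, a binding protein abundant in many epithelia and vessels, was measured by 3 probes. The brightest, at chr4:57897423-57897482 (hg19, minus strand), gave 7.09 in HN4 and 6.73 in HN4/DDP, against 6.76 in HN30 and 7.51 in HN30/DDP. The probe whose sequence is shown above gave 6.46, 6.14, 6.31 and 7.09. HN30/DDP was the highest array with both, and neighbours among the other 3 did not differ by more than 2 scanner SDs. The third probe, of an Ensembl transcript at chr4:57896947-57897006, was much dimmer and gave -1.41, -1.72, -1.87 and 0.05. In HN4/DDP the 3 probes differed from HN4 by -0.31 to -0.36. In HN30/DDP the first pair differed from HN30 by 0.75 and 0.78 (scanner SD 0.20 each) and the third probe by 1.93 (scanner SD 0.21). The difference of the brightest probe, which stood for the gene, was 0.33 with scaling to the array median, against 1.15 with quantile normalization and 1.17 with the deposited values, and the mean of all 3 probes gave 1.15. The probes thus gave like differences in HN4/DDP but not in HN30/DDP.

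IGFBP6, which binds IGF2 in preference to IGF1, varied little between the arrays at the main scaling. Its level was 3.27 in HN4 and 3.11 in HN4/DDP, against 3.08 in HN30 and 3.28 in HN30/DDP. Neighbours in this order did not differ by more than 2 scanner SDs. Its difference was -0.15 in HN4/DDP and 0.20 in HN30/DDP (scanner SD 0.20 each), and the latter turned to -0.22 with scaling to the array median and was 0.61 with quantile normalization and with the deposited values.

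IGFBP2, a binding protein common in fetal tissue and tumours, was dim but well above background on all arrays. Its level was -4.18 in HN4 and -4.04 in HN4/DDP, against -4.26 in HN30 and -3.42 in HN30/DDP. HN30/DDP was the highest, and the other 3 did not differ by more than 2 scanner SDs. Its probe, at chr2:217529086-217529145 (hg19, plus strand), was also printed 10 times, and its spots had an SD of 0.118 to 0.368, wider than those of IGFBP3. Unscaled spot signals ran from 14.7 to 35.1 in HN30 and from 39.6 to 49.7 in HN30/DDP, and from 20.7 to 40.7 in HN4 and from 24.0 to 37.2 in HN4/DDP. Whether such ranges overlap between arrays depends on the scaling. In HN4/DDP it differed from HN4 by 0.14 and in HN30/DDP from HN30 by 0.84 (scanner SD 0.33 for both), and the latter was 0.19 with normexp and 0.42 with scaling to the array median.

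IGFBP4, which PAPPA cleaves to release IGFs, was well above background only on the HN30/DDP array, with levels of -5.46 in HN4 and -7.08 in HN4/DDP, against -4.79 in HN30 and -4.31 in HN30/DDP. It differed by 0.47 between HN30/DDP and HN30 (scanner SD 0.43), a bound of at least 1.24-fold at this scaling. The difference was 0.05 with scaling to the array median and turned to -0.023 with normexp, so its direction depends on the processing. IGFBP1, made mainly by the liver, lay between -7.23 and -6.68, and IGFBP5, made in muscle and bone, between -7.29 and -6.93. Neither was well above background on any array, so their levels are bounds with no order.

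**Figure D2:**
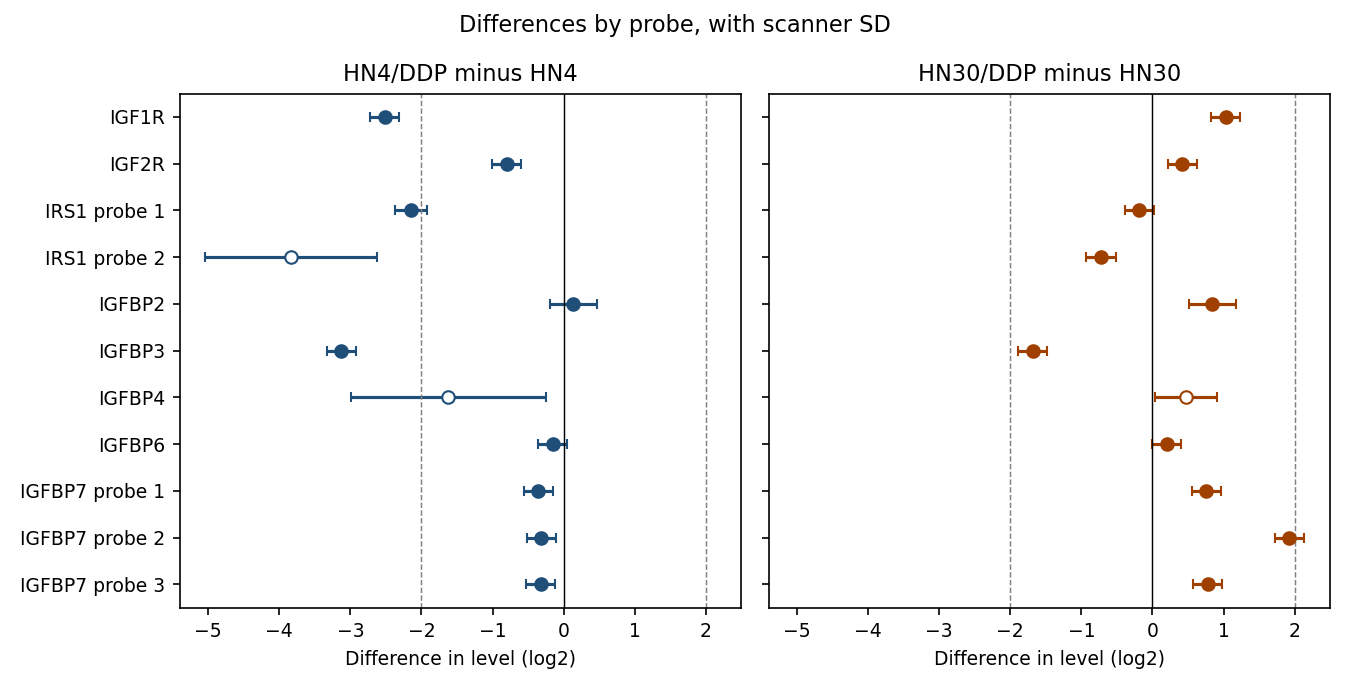
Differences in level (log2) of each probe of the 8 genes that were well above background on at least 1 array, HN4/DDP minus HN4 on the left and HN30/DDP minus HN30 on the right, with bars for the scanner SD. Open points were not well above background on at least 1 array of the pair, and dashed lines mark 2 and -2. IGF1R lay at -2.52 on the left and 1.03 on the right, and IGFBP3 below 0 on both sides.

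A gene was counted as higher or lower when its difference passed 2 and its signal on the higher of both arrays was well above background. In HN4/DDP, 3 of the 7 members that could be counted were lower (2 with normexp or a pseudocount of 16), against 2.2% of 26853 genes (percent called lower), and 0 were higher, against 3.61%. In HN30/DDP, 0 of 8 were lower (1 with scaling to the array median), against 2.75% of 28330 genes, and 0 were higher, against 8.37%. At a threshold of 1, the same 3 members were lower in HN4/DDP, against 8.65% of genes, and 0 were higher, against 9.31%. At that threshold 1 member was higher in HN30/DDP (IGF1R, against 19.8%, a call that 2 other scalings end) and 1 was lower (IGFBP3, against 13.3%). Over the 7 members that each array of the pair measured well above background, the median difference was -0.80 in HN4/DDP, where that of all such genes was -0.09, and 0.42 in HN30/DDP, where it was -0.07. In HN4/DDP 6 of the 7 lay below 0. In HN30/DDP 5 of the 7 lay above 0, but 3 with scaling to the array median and 6 with the percentile over probes well above background on all arrays. With these scalings the members' median in HN30/DDP was -0.0017 and 0.68, where that of all such genes was -0.49 and 0.20. These counts and medians describe the arrays, as genes are not replicates.

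**Figure D3:**
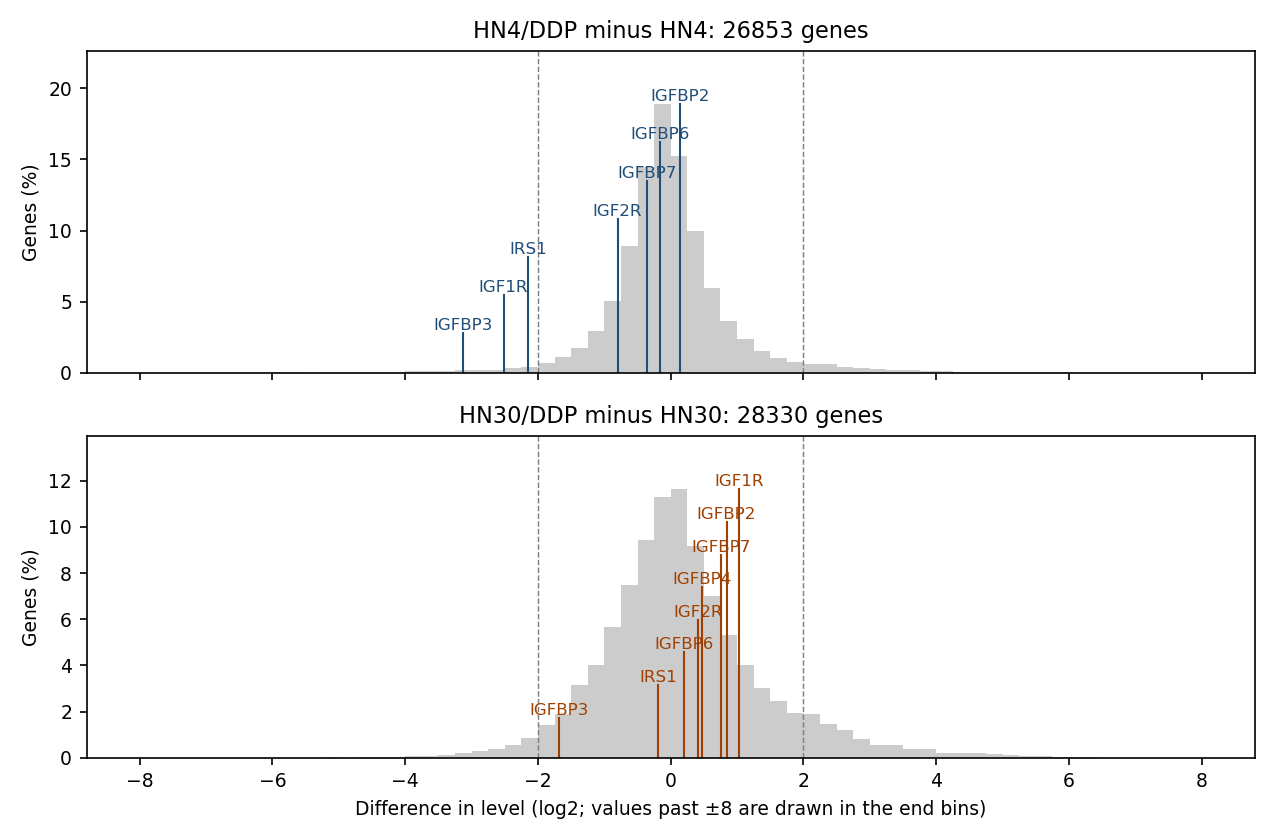
Differences of all genes measured well above background by either array of the pair, as the percentage of genes in bins of 0.25 (grey bars), with the members as labelled lines whose height has no meaning. HN4/DDP minus HN4 is above and HN30/DDP minus HN30 below, and dashed lines mark 2 and -2. IGFBP3, IGF1R and IRS1 lay below -2 in the upper panel and no member did in the lower one.

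The parental lines also differed from each other. In HN30, IGFBP3 was 7.03-fold lower than in HN4, a log2 difference of -2.81, and it was the only one of 7 members lower by more than 2, against 1.9% of 25889 genes. None was higher by more than 2, against 0.904%. IRS1 was higher in HN30 by 1.77 (scanner SD 0.21), and 1.13% of genes had a higher difference. Between the resistant lines, 3 of 8 members were counted as higher in HN30/DDP than in HN4/DDP by more than 2, against 5.68% of 28729 genes. These were IRS1 with 3.73 (scanner SD 0.22), IGF1R with 2.91 (scanner SD 0.20) and IGFBP4 with 2.77 (scanner SD 1.29). IGFBP4 was not well above background in HN4/DDP, and its bound of at least 1.60-fold does not reach the threshold. None was lower by more than 2, against 2.63%. IGFBP3 remained lower in HN30/DDP, by a log2 difference of -1.37.

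With both lines together, the resistant arrays were set against the parental ones with the cell line as a block, in 1 limma fit of the 29521 genes that any array measured well above background. No gene had an adjusted p below 0.05, and 2537 genes (8.59%) had an unadjusted p below 0.05. Of the 8 members in the fit, IGFBP3 came nearest, with a mean log2 difference of -2.40 (SE 0.53), lower in 2 of 2 lines, and a limma adjusted p of 0.471. IRS1 followed with -1.17 (SE 0.59), and a limma adjusted p of 0.668. Its difference was negative in both lines, but that in HN30/DDP was within its scanner SD and changed sign with the scaling. IGF1R had a mean of -0.74 (SE 0.94), with opposite signs in the lines. In simulated data for this comparison the fit recovered 100% of 200 changed genes when all genes shared 1 spread, and 0% when each gene had a spread drawn from the arrays. A count of 0 therefore does not show that no gene changed.

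The patterns most like that of IGFBP3 over the 4 arrays were sought among 22149 genes well above background on all of them, by the Euclidean distance of mean-centred levels. SHISA2, which encodes a membrane protein, was the nearest (distance 0.357), with differences of -3.31 in HN4/DDP and -1.70 in HN30/DDP. PTPRB, a receptor tyrosine phosphatase, followed (distance 0.795), with -2.19 and -1.90. FAP, a surface protease, came next (distance 1.04), with -2.74 and -2.41. The distances rest on 4 arrays and are a description.

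The other genes of the IGF pathway were taken as 10 lists, of which 71 genes are reported. In HN4/DDP, 4 of the 64 that could be counted were lower by more than 2, against 2.2% of all genes. In the other direction 0 were higher, against 3.61%. When both arrays had to be well above background, 3 of 61 were lower, against 1.24% of 23469 genes. With normexp 1 of the 4 remained (HTRA1), and with a pseudocount of 16 HTRA1 and NOV remained. In HN30/DDP, 6 of 68 were higher, against 8.37% of all genes, so the share was near the background, and 1 was lower, against 2.75%. When both arrays had to be well above background, 3 of 63 were higher, against 4.46% of 23245 genes. The 6 became 4 with dim signals at their bound, where IGF2 and INSR were lost, and 4 with scaling to the array median, where IRS2 and IGFALS were lost. IRS2 was also lost with the percentile over averaged probes and IGF2 with the mean of all probes. With quantile normalization and with the deposited values the count was again 6, with GRB10, an adaptor that binds the receptor, in place of IGFALS. With normexp and with a pseudocount of 16 only IRS4 and FOXO6 remained of the 6.

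Among the ligands, IGF1 and INS were well above background on all arrays and did not pass the threshold in either line. IGF1 differed by -0.41 in HN4/DDP, against -0.67 in HN30/DDP, and INS by -0.17 and 0.99. IGF2 was well above background only in HN30/DDP, where it was at least 2.78-fold higher than in HN30. INSR, the insulin receptor, was likewise well above background only in HN30/DDP, where it was at least 2.10-fold higher by the probe used, and INSRR on no array. Of the receptor adaptors, IRS4 was at least 17.8-fold higher in HN30/DDP than in HN30, with a level of -0.48 in HN30/DDP and no signal well above background on the other arrays. IRS2 was higher there by 2.02 (scanner SD 0.20), just past the threshold. In HN4/DDP 0 of 9 adaptors passed 2, against 5.81% of all genes, and IRS2 differed by 0.39.

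Of the 4 genes lower in HN4/DDP, 3 were among the 9 countable genes that act on the binding proteins, against 2.2% of all genes. Of these 9, 0 were higher, against 3.61%. HTRA1, a secreted serine protease that cleaves IGF-binding proteins, had a level of 2.84 in HN4 and -3.87 in HN4/DDP, against 3.77 in HN30 and 3.34 in HN30/DDP. Only the HN4/DDP array was low, with a log2 difference of -6.71 (scanner SD 0.24) from HN4. STC1, a secreted inhibitor of PAPPA, differed by -2.33, which normexp and a pseudocount of 16 brought within the threshold. PAPPA, the protease of IGFBP4, differed by -2.14, lost under the same settings, and it is named after its values were seen. In HN30/DDP these 3 differed by -0.43, 0.19 and -0.45. In that line IGFALS, the acid-labile subunit of the complex of IGF and IGFBP3, was higher by 2.17. This call was lost under 5 of the 10 alternatives (normexp, a pseudocount of 16, the array median, quantile normalization and the deposited values). ADAM12, a metalloprotease that cleaves IGFBP3 and IGFBP5, was lower, with a difference of -2.65, a call lost with normexp and with the mean of all probes. In HN4/DDP ADAM12 differed the other way, by 1.81, which did not pass the threshold. The list's median was 0.26 in HN4/DDP and 0.45 in HN30/DDP, against -0.08 and 0.06 over all genes. Of 5 countable genes of other proteins with an IGFBP domain, NOV was at least 4.17-fold lower in HN4/DDP, a call lost with normexp, and differed by 0.29 in HN30/DDP.

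Downstream of the receptors, 0 of 10 genes of the mTOR branch and 0 of 9 of the RAS-MAPK branch passed the threshold in either line. Of all genes, 5.81% were called in HN4/DDP and 11.1% in HN30/DDP, so 0 in lists this small is near that share. HRAS, at -1.91 in HN30/DDP, passed the threshold with scaling to the array median and with the percentile over averaged probes. Of the 13 reported genes of the PI3K-AKT branch, 0 passed it in HN30/DDP. Their median difference there was -0.43, against 0.06 over all genes. The widest difference among them there was that of PIK3CD, a catalytic subunit of PI3K, at 1.82 (scanner SD 0.21), which passed with the percentile over probes well above background on all arrays. The 4 FOXO factors, transcription factors that AKT phosphorylates, had a median difference of -0.40 in HN4/DDP and 1.23 in HN30/DDP. Over all genes the medians were -0.08 and 0.06, and that in HN30/DDP ran from -0.36 to 0.32 with the scaling. Of the FOXO factors, FOXO6 was higher in HN30/DDP by 3.33 (scanner SD 0.20). The 3 mRNA-binding proteins IGF2BP1 to IGF2BP3 stayed within 2 in both lines.

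**Figure D4:**
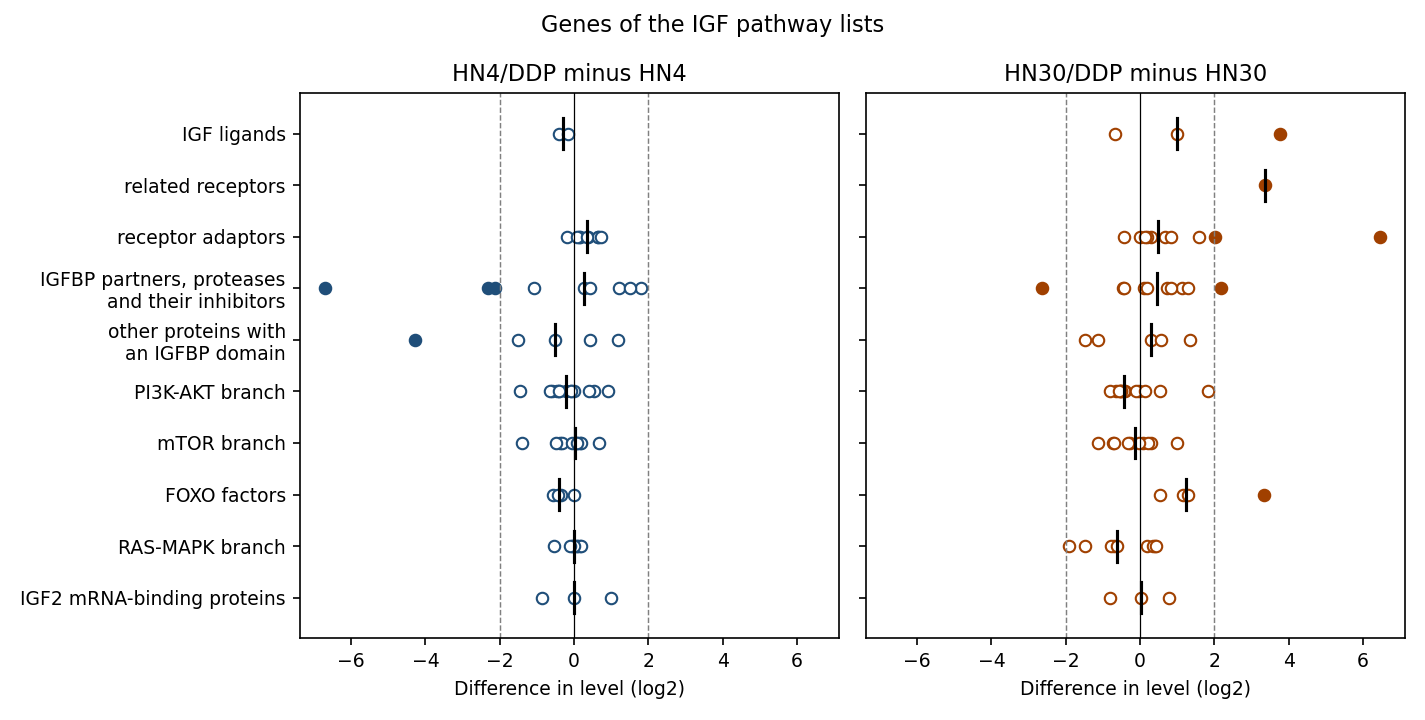
Differences in level (log2) of the genes of the 10 pathway lists measured well above background by either array of the pair, HN4/DDP minus HN4 on the left and HN30/DDP minus HN30 on the right. Filled points are genes counted as higher or lower, bars are the median of a list and dashed lines mark 2 and -2. HTRA1 is the point at -6.71 on the left, and IRS4 the point at 6.46 on the right, whose signal in HN30 was not well above background.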

How the data were processed

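The authors deposited the output of Agilent Feature Extraction 10.7.1.1 (version per the processing notes), with the processed intensity of each spot, corrected for background but not normalized between arrays, and probe coordinates on hg19. They also deposited a log2 table in which all 4 arrays have a median of 4.65. The main values were log2 of the processed intensity minus its 75th percentile over the 60901 spots that are not controls. Outlier spots were left out, the spots of a probe were averaged, and the probe of highest mean stood for its gene. The members and gene lists were chosen with earlier results of these data known. Named genes were all members, at most 4 called genes of a pathway list (the largest differences), and the 3 genes nearest in pattern to the member of widest range. Beyond this rule PAPPA, IGF1, INS, INSRR, GRB10, HRAS, PIK3CD, IGF2BP1 to IGF2BP3 and the marker genes were named after their values were seen. Of several promoters of a gene, the table's first was used. Of the 10 pathway lists, 1 gene is not reported here and was left out of their counts, medians and plot. Accessions were matched to RefSeq symbols for 12 of the 13 probes. Alternatives were normexp (offset 50), quantile normalization, the array median, the percentile over probes well above background on all arrays, a pseudocount of 16, dim signals at their bound, the mean of all probes, outlier spots kept and the deposited table. The percentile over averaged probes was added after the data were seen. All 4 arrays were fitted with limma 3.58.1 in R 4.3.3 (trended eBayes, Benjamini-Hochberg adjustment). Python 3.11.15, numpy 2.4.6 and pandas 2.3.3 did the rest. The steps were tested on simulated data. Dim signals were bounded by the lowest signal well above background on the array, and no p-value was computed within a line.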

Additional observations from a re-analysis of the deposited data

Results flagged for a closer look

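IGF1R moved in opposite directions in the lines. Its log2 difference was -2.52 in HN4/DDP and 1.03 in HN30/DDP, each more than 2 scanner SDs from 0. IGF2R also had opposite signs, -0.80 in HN4/DDP and 0.42 in HN30/DDP, again each more than 2 scanner SDs from 0, but the latter was -0.0017 with scaling to the array median. With 1 array per condition, neither difference between the lines was tested.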

How the results depend on the processing

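The 20 differences of the members were recomputed under 10 alternatives. Of 200 values, 168 moved by less than the scanner SD, 32 moved by more, and 0 called values changed sign. Scaling shifted all genes of HN30/DDP, whose median difference of 0.06 became -0.36 with the array median and 0.32 with the percentile over probes well above background on all arrays. The values that moved in HN30/DDP were as follows. With the array median, IGFBP2 was 0.42, IGFBP3 -2.10, IGFBP6 -0.22, IGFBP7 0.33, IGF1R 0.61, IGF2R -0.0017 and IRS1 -0.61. With the percentile over probes well above background on all arrays, IGFBP3 was -1.42, IGFBP6 0.46, IGFBP7 1.02, IGF1R 1.30, IGF2R 0.68 and IRS1 0.075. With quantile normalization and with the deposited values, IGFBP2 was 0.43 and 0.28, IGFBP6 0.61 and 0.61, IGFBP7 1.15 and 1.17, IGF1R 1.31 and 1.31, and IGF2R 0.69 and 0.69. With the mean of all probes, IGFBP7 was 1.15 and IRS1 -0.46, and with normexp IGFBP2 was 0.19 and IGFBP4 -0.023. In HN4/DDP, IRS1 was -1.45 with normexp, -1.88 with a pseudocount of 16 and -2.99 with the mean of all probes, and IGFBP4 was -0.22 with normexp and -0.23 with dim signals at their bound. The cause was not tested.

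The count of 3 members lower in HN4/DDP was 2 with normexp and with a pseudocount of 16. In HN30/DDP the count lower was 1 with the array median and 1 at a threshold of 1, and the count higher was 1 at a threshold of 1. Of the 64 countable pathway genes reported in HN4/DDP, 5 were higher and 8 lower at a threshold of 1, against 9.31% and 8.65% of all genes. In place of 4 lower at a threshold of 2, 1 was lower with normexp and 2 with a pseudocount of 16. In HN30/DDP, 13 of 68 were higher and 6 lower at a threshold of 1 in place of 6 and 1, against 19.8% and 13.3% of all genes. There, 4 were higher with dim signals at their bound and with the array median, 2 with normexp, 2 with a pseudocount of 16 and 3 when both arrays had to be well above background. The count lower was 0 with normexp and with the mean of all probes, and 2 with the array median and with the percentile over averaged probes. limma called 0 genes under each of its 4 alternatives, which were fits of 22149 or 29521 genes. An unadjusted limma p below 0.05 was found for 1957 to 3261 genes, and the share of the fitted genes ran from 7.35% to 11%. The cell line was the block that paired the 1 parental with the 1 resistant array of each line. Without this block limma also called 0 genes, and the smallest adjusted p of a member was 0.484. With 1 array per condition, leaving out a replicate leaves no comparison.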
